A study of Homo sapiens with 6 samples.

Results

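The nuclear pore and transport genes described here are the protein-coding genes whose symbols name a nucleoporin (NUP with a number, NUPL2), a karyopherin or importin (KPNA, KPNB, IPO, TNPO), an exportin (XPO, CSE1L), the GTPase RAN or a Ran-binding protein (RANBP). Symbols alone define them, and no measured value enters that rule, but the genes were chosen with earlier results of these data known. There were 57 such genes among the 60675 genes of the count table. They comprise 24 nucleoporins, with RANBP2 counted among them, and 33 transport receptors, Ran and Ran-binding proteins. Nucleoporins that carry other symbols are described separately as genes of the same pathway.

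RNA-seq read counts were available for 6 libraries of MRC-5, a fibroblast line derived from human fetal lung that divides only a limited number of times. In 3 libraries the cells had been made quiescent, meaning reversibly arrested, by leaving them in contact inhibition for 9 days. The 3 other libraries came from control cells that the series calls young and that the labels describe as unperturbed. Both groups were at population doubling 32, and no genetic change or drug is given for either. The labels record the young libraries as reprocessed from an earlier series, so effects of the library set and of growth state cannot be told apart here. Separate cultures are not stated for the libraries of a group, and the p-values therefore measure the spread among these samples, which may be technical.

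Total counts were 18661639 to 22546237 per quiescent library and 26860981 to 29433764 per young library. Levels are given as CPM, which are counts brought to a common library total with TMM scaling factors. The labelled cell type was checked against marker genes. All 9 fibroblast markers were abundant enough to be tested, with a summed level of 14640 to 15000 CPM in quiescent and 25080 to 25700 CPM in young libraries. They did not move together: 6 were called lower, 2 (PDGFRB and LUM) higher, and VIM was not called. They ranged from THY1 at 26.6% to LUM at 234% of the young level. The epithelial genes KRT5 and SFTPC and the T-cell gene CD3E had no read in any library. PTPRC, the pan-leukocyte marker, had at most 1 read in a library, and the endothelial cadherin CDH5 had 1 read in all, whereas the endothelial gene VWF had 3.27 ± 0.276 CPM in quiescent and 0.803 ± 0.209 CPM in young libraries (SD, n = 3 each) and was called higher (log2 fold change 2.03, adjusted p = 1.85e-09). Summed levels were 0.958 to 1.38 CPM in quiescent and 12.3 to 13.7 CPM in young libraries for 6 epithelial markers, of which KRT19 alone was abundant enough to be tested. They were 91.7 to 93.7 CPM in quiescent and 75.2 to 85.8 CPM in young libraries for 4 endothelial markers, nearly all of it TEK, and 96.3 to 99.3 CPM in quiescent and 197.5 to 208.1 CPM in young libraries for 4 smooth muscle markers, of which MYH11 had at most 5 reads in a library. The 10 proliferation markers were all lower in quiescence, with a summed level of 142.7 to 148.6 CPM in quiescent and 618.7 to 639.8 CPM in young libraries. The part of these marker shifts in the differences below was not tested.

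As background, the nuclear pore complex is a ring-shaped channel through the nuclear envelope, built from scaffold nucleoporins that form an inner ring and outer rings, from nucleoporins with phenylalanine-glycine repeats that fill the channel, and from filaments on the cytoplasmic side and a basket on the nuclear side. Importins carry proteins into the nucleus and exportins carry proteins and RNAs out, and the small GTPase Ran sets the direction: bound to GTP in the nucleus it releases import cargo and loads export cargo. In dividing cells the pore is taken apart and rebuilt at each mitosis, and Ran and several importins also act on the mitotic spindle.

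Most of these genes were expressed, and most were modestly lower in the quiescent fibroblasts. Of the 57 genes, 53 passed the filter on low counts, 22 of them nucleoporins and 31 transport genes. By the quasi-likelihood test of edgeR, adjusted by Benjamini-Hochberg over 15568 genes, 32 of the 53 were lower in quiescent than in young libraries, 13 were higher and 8 were not called at adjusted p under 0.05. The called share was 84.9%, against 71.1% of all tested genes. The share called lower was 60.4%, against a background of 36.3%, and the share called higher was 24.5%, against a background of 34.8%. Since 51 of the 53 genes had a mean of at least 5 CPM, genes of that level are the closer background, and among them 76.6% were called, 42.6% lower and 34% higher. Among all tested protein-coding genes, 39.2% were lower and 34.7% higher. In bulk RNA, fewer cells expressing a gene and less RNA of it per cell cannot be told apart.

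The differences were small. The median log2 fold change, quiescent over young, was -0.16 over the 53 genes and 0.00 over all tested genes. The median absolute log2 fold change was 0.25 for the 53 genes, 0.39 for all tested genes and 0.31 for those with a mean of at least 5 CPM. At least 2-fold lower was 1 of the 53, KPNA2, where 8.33% of all tested genes were. The only gene at least 2-fold higher was NUP210L, against 8.98% of all tested genes. It passed the filter only through the quiescent libraries, where it was high, so its call is no result, and without it 32 of 52 genes were lower (61.5%) and 12 higher (23.1%). All 3 quiescent CPM lay below all 3 young CPM in 32 of the 53 genes, as in 37.1% of all tested genes, and above them in 14, as in 36.4%. Summed over the 57 genes, the level was 4706 ± 26.8 CPM in quiescent and 5355 ± 119.5 CPM in young libraries (SD, n = 3 each), so the quiescent sum was 87.9% of the young one. The 4 genes below the filter had few reads anywhere: NUP210, the membrane nucleoporin, had 4, 5 and 1 reads in quiescent and 3, 13 and 5 reads in young libraries. NUP62CL, RANBP3L and KPNA7 had at most 4 reads in a library.

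**Figure D1:**
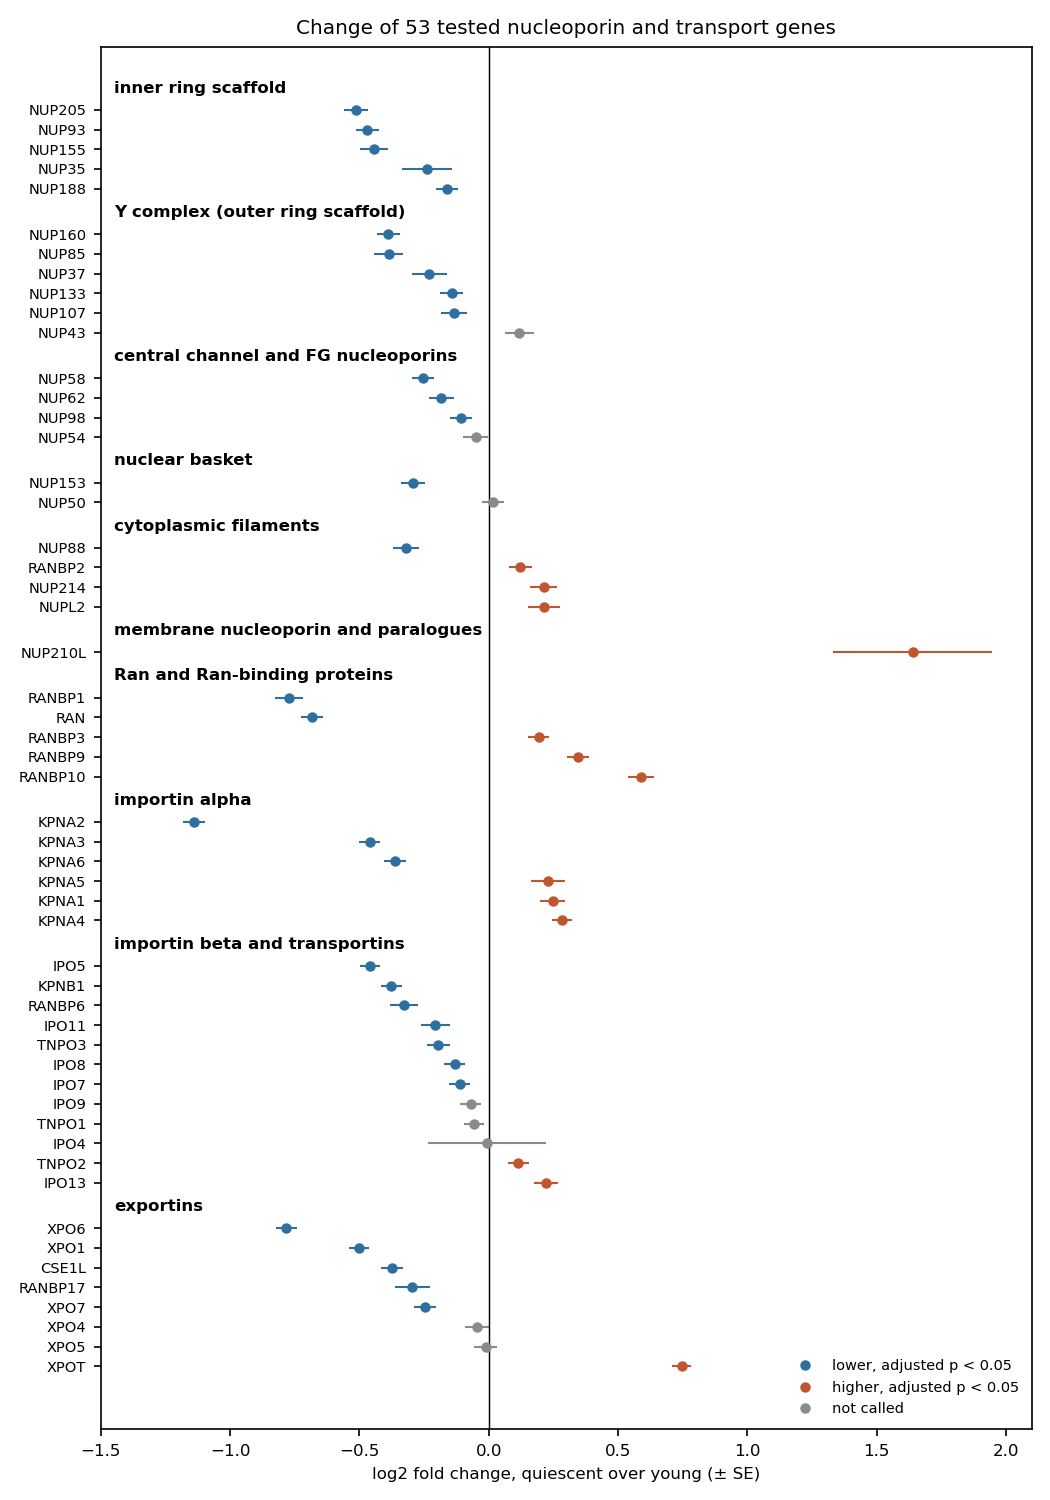
Log2 fold change, quiescent over young, of the 53 tested nucleoporin and transport genes (points), grouped by role and coloured by call. Bars are standard errors derived from the F statistic of the edgeR test. The inner ring lies wholly left of 0, the cytoplasmic filaments and importin alpha genes lie on both sides, and KPNA2 at -1.14 and NUP210L at 1.64 are the outermost points.

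The direction of small differences depended on how the libraries were scaled. TMM factors were 1.06 to 1.07 in quiescent and 0.924 to 0.948 in young libraries. When libraries were scaled by their size alone, the median over all tested genes was 0.18 in log2, and 18 of the 53 genes were then lower and 20 higher, against backgrounds of 25% lower and 48.6% higher. With upper-quartile factors, 25 were lower and 14 higher, against 31.6% and 40.3%. The distance between the median of the 53 genes and that of all tested genes was -0.16 under TMM, DESeq2 size factors, upper-quartile factors and library size alone. A scaling factor moves every gene by nearly the same amount, so this distance could hardly differ and is no separate evidence. Under each of these 4 scalings 18 genes were called lower, where 25% of all tested genes were, and 13 were called higher, where 34.8% were. These joint counts repeat the strictest scaling in each direction, library size alone for lower and TMM for higher. The 18 were KPNA2, KPNA3, KPNA6, KPNB1, IPO5, RANBP6, XPO1, XPO6, CSE1L, RAN, RANBP1, NUP85, NUP88, NUP93, NUP153, NUP155, NUP160 and NUP205. The 13 were XPOT, RANBP10, RANBP9, RANBP3, RANBP2, KPNA1, KPNA4, KPNA5, IPO13, TNPO2, NUP214, NUPL2 and NUP210L. NUP210L passed the filter only through the quiescent libraries, so its call is no result. It is counted in each number of the 53 genes called higher given here. The remaining genes were called under some scalings or none: XPO4, XPO5, NUP43, NUP50, NUP54, IPO9 and TNPO1, not called under TMM, were all called higher with library size alone.

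**Figure D2:**
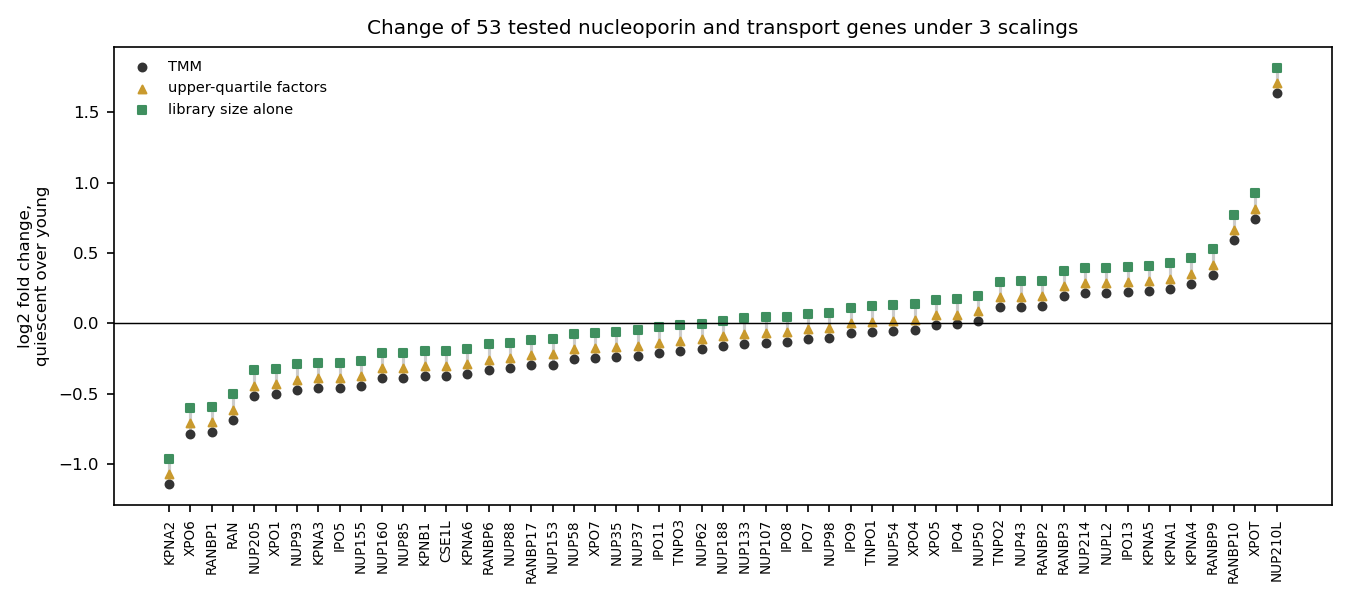
Log2 fold change, quiescent over young, of each of the 53 tested genes under TMM (circles), upper-quartile factors (triangles) and library size alone (squares), ordered by the TMM value. Every gene moves up by about the same amount from TMM to library size alone, so genes near 0, such as NUP98 and NUP107, change sign, while KPNA2, XPO6, RANBP1 and RAN stay below 0 and XPOT and RANBP10 stay above it.

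The genes that moved furthest at levels above 5 CPM were the import receptor gene KPNA2, the export receptor gene XPO6, RANBP1 and RAN on the lower side and the export receptor gene XPOT on the higher side. Promoter sequences are shown for KPNA2, RAN and XPO6, for NUP205 as the nucleoporin with the largest fall, and for XPOT as the contrast in the other direction. RANBP1 is described by its values alone. The sequences are from RefSeq on GRCh38.p14 and run 5′ to 3′ on the strand of the gene, from 250 bases before the annotated start of transcription to 30 bases after it. Capitals mark letters of the motifs searched for on both strands: the cell cycle homology region (CHR, TTTGAA), the CCAAT box (CCAAT), the E-box (CACGTG) and the ETS motif (CCGGAAG).
KPNA2 (chr17:68035485-68035764, plus strand): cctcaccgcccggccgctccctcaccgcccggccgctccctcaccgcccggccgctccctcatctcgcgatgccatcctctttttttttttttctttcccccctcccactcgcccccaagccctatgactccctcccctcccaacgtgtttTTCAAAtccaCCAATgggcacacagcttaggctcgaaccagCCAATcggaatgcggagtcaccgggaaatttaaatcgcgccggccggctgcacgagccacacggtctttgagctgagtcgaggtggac
RAN (chr12:130871816-130872095, plus strand): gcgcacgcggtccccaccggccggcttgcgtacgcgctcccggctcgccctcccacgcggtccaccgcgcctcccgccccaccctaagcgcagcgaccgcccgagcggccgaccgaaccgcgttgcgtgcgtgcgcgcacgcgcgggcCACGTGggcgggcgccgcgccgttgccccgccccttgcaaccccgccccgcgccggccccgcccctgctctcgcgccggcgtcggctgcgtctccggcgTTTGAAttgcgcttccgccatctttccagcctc
NUP205 (chr7:135557667-135557946, plus strand): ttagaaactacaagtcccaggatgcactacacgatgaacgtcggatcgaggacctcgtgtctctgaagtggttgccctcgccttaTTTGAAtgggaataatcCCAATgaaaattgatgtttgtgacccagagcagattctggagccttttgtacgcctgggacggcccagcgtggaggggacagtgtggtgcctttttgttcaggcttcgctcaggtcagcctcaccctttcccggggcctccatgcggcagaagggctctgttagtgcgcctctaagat
XPO6 (chr16:28211936-28212215, minus strand): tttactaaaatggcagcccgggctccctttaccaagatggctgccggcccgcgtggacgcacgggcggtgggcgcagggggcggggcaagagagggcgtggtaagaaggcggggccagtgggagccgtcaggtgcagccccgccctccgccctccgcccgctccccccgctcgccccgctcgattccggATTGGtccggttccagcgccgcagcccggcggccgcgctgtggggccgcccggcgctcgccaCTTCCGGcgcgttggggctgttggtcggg
XPOT (chr12:64404142-64404421, plus strand): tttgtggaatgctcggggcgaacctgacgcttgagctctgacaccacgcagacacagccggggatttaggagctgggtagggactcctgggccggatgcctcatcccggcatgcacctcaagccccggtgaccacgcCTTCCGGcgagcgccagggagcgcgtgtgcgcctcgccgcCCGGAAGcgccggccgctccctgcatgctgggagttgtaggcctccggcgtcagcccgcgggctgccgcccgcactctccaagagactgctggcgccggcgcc
In KPNA2 a CHR match began 99 bases upstream of the start, followed by CCAAT boxes at 89 and 58 bases upstream, and a further CHR match lay 33 bases downstream, beyond the stretch shown. In RAN a CHR match began 3 bases upstream of the start and an E-box 102 bases upstream. In NUP205 a CHR match at 165 and a CCAAT box at 148 bases upstream stood close together. XPO6 had a CCAAT box 61 bases upstream and an ETS match at the start, and XPOT had ETS matches at 113 and 73 bases upstream and neither a CHR match nor a CCAAT box. No match overlapped another in these 5 promoters.

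A promoter entry, from 250 bases before to 50 after the start, was found for 50 of the 57 genes. The CHR, as background a promoter element of genes expressed late in the cell cycle, was present in 11 of the 50 promoters (22%), against 15.2% of all 35116 promoters in the table. It was present in 10 of the 29 promoters of genes called lower (34.5%) and in that of RANBP3L, which was not tested. The 10 were KPNA2, RAN, CSE1L, IPO7, IPO11, NUP35, NUP37, NUP98, NUP153 and NUP205. It was present in none of the 11 promoters of genes called higher and in none of the 7 of genes not called. The 11 include that of NUP210L, a gene whose call is no result and whose promoter has a CCAAT box. Matches to the E2F letters TTTCGCGC or TTTGGCGC were found in 3 of the 29 promoters of genes called lower, those of IPO7, IPO11 and NUP155, in none of the 11 of genes called higher, and in 1.15% of all promoters. The CCAAT box was present in 50% of the 50 promoters, against 34.6% of all, and in similar shares of genes called lower (51.7%) and higher (45.5%). The ETS motif was present in 26% of the 50 promoters, against 10.3% of all, and the E-box in 14%, against 7.26%. The CARE motif TGATGNAA of amino acid response genes was present in 1 of the 50, that of NUP153, and in 3.62% of all promoters. Of the 10 genes called lower with a CHR, IPO7, IPO11, NUP35, NUP37 and NUP98 were not called with library size alone. The background holds all promoters of the table, whether or not the gene was expressed, and no share was counted for all genes called lower. These counts describe letters in a fixed window and were not tested.

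Ran and its partner RANBP1 were lower, while 3 other Ran-binding proteins were higher. These are 40% and 60% of the 5 tested genes of this role, against 36.3% and 34.8% of all tested genes. RAN (ENSG00000132341, GRCh38 chromosome 12 from 130871879 to 130877678), the GTPase itself, had 164.1, 164.6 and 165.5 CPM in quiescent and 250.2, 265.9 and 277.7 CPM in young libraries. The quiescent libraries were nearly identical and all lay far below the young ones. Its level in quiescent libraries was 62.3% of that in young ones (log2 fold change -0.68 ± 0.04, SE, adjusted p = 1.19e-13). Reads on its 9 pseudogenes summed to 0.386% of its own. RANBP1 (ENSG00000099901, chromosome 22 from 20115938 to 20127357), which helps RanGAP to switch Ran off in the cytoplasm, had 27.6, 25.6 and 26.7 CPM in quiescent and 44.6, 44.1 and 47.7 CPM in young libraries. Again every quiescent library was below every young one, at 58.5% of the young level (log2 fold change -0.77 ± 0.05, SE, adjusted p = 1.59e-12). TRMT2A, a tRNA methyltransferase gene that overlaps RANBP1, had 2227 reads in quiescent and 2632 in young libraries, beside 1710 and 3656 for RANBP1 itself. The kit did not mark the strand, so reads from exon sequence that overlapping genes share cannot be separated. Overlap here is of whole gene spans, and shared exon sequence was not measured.

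RANBP10 (ENSG00000141084, chromosome 16 from 67723066 to 67806652), a scaffold protein related to RANBP9, had 42.5, 43.3 and 42.1 CPM in quiescent and 28.8, 27.9 and 28.4 CPM in young libraries. The groups were wide apart, with the quiescent level at 150.5% of the young one (log2 fold change 0.59 ± 0.05, SE, adjusted p = 8.58e-11). RANBP9, a subunit of the CTLH ubiquitin ligase, had 95.6, 95.9 and 94.9 CPM in quiescent and 72.2, 77.9 and 75.2 CPM in young libraries, without overlap, and RANBP3, a cofactor of XPO1 in export, was also higher, at 114.2% of the young level. NOL7, which overlaps RANBP9, had 3219 reads in quiescent and 4878 in young libraries, beside 6144 and 6038 for RANBP9.

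The importin alpha genes, whose products bind the classical nuclear localisation signal and hand cargo to importin beta, split evenly: 3 were lower and 3 higher in quiescence. Of all tested genes, 36.3% were lower and 34.8% higher. KPNA2 (ENSG00000182481, chromosome 17 from 68035519 to 68046842), an importin alpha abundant in dividing cells, had 77.8, 79.7 and 75.3 CPM in quiescent and 163.8, 172.2 and 177.3 CPM in young libraries. Every young library had more than 160 CPM and every quiescent one less than 80. Its quiescent level was 45.4% of the young one (log2 fold change -1.14 ± 0.04, SE, adjusted p = 4.21e-18), the largest fall among the 53 genes. Its 3 pseudogenes together had 9 reads in the 6 libraries. With library size alone the log2 fold change was -0.96, which is short of 2-fold.

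KPNA3 had 92.7, 98.4 and 95.8 CPM in quiescent and 129.8, 135.1 and 130.0 CPM in young libraries (log2 fold change -0.46 ± 0.04, SE, adjusted p = 2.2e-10). KPNA6 was at 77.8% of the young level. Neither overlapped between groups. On the other side, KPNA4 had 129.3, 130.0 and 128.8 CPM in quiescent and 107.7, 108.2 and 103.3 CPM in young libraries (log2 fold change 0.28 ± 0.04, SE, adjusted p = 6.95e-07). KPNA1 and KPNA5 were at 118.6% and 117.1% of the young level, each without overlap. KPNA7 had 3 reads in quiescent libraries and none in young ones.

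The makeup of the importin alpha pool, which no library scaling can change, differed accordingly. Per kilobase of exon, KPNA2 made up 30.1%, 30.0% and 29.6% of the summed importin alpha level in quiescent and 44.4%, 44.8% and 46.9% in young libraries. KPNA4 made up 16.6 ± 0.284% in quiescent and 9.41 ± 0.310% in young libraries, and KPNA1 10.02 ± 0.400% in quiescent and 5.82 ± 0.197% in young libraries (SD, n = 3 each). KPNA3 held 25.8 ± 0.589% in quiescent and 24.5 ± 0.302% in young libraries, a smaller difference. KPNA2 was the first of the family in both groups, but by a smaller margin over KPNA3 in quiescence. There were 0.600 ± 0.0142 KPNA2 reads for each KPNA4 read in quiescent and 1.61 ± 0.0991 in young libraries. For such single values 3 libraries against 3 cannot reach an exact two-sided permutation p below 0.1, so none is given.

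**Figure D3:**
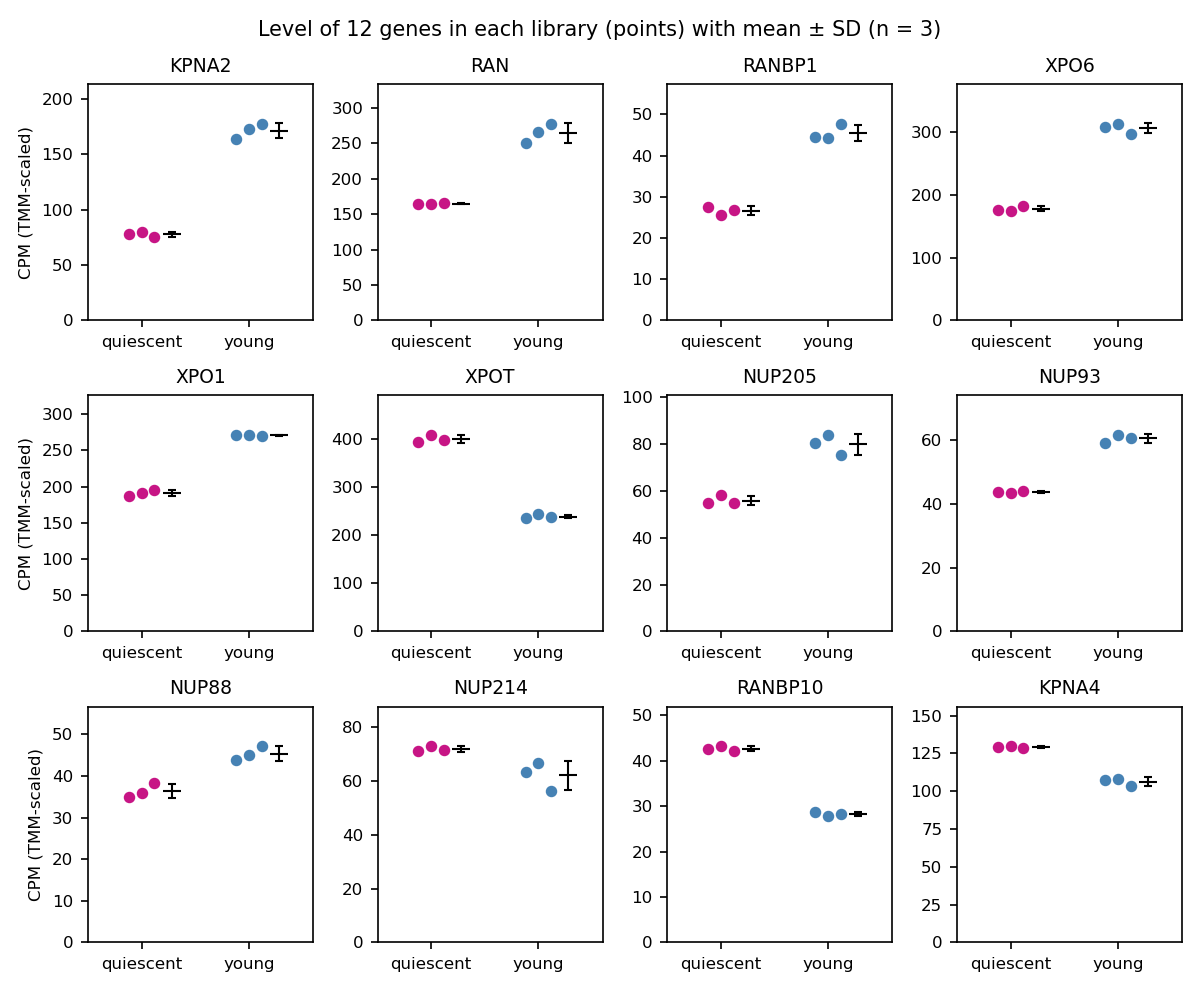
TMM-scaled CPM of 12 nuclear transport and nucleoporin genes in each library (points) with the mean and SD of the 3 libraries of a group (black bars), quiescent left and young right, each axis starting at 0. The 12 were picked from the called genes, so that the groups do not overlap in any of them is no result. Among all tested genes, the quiescent CPM lay wholly below the young ones in 37.1% and wholly above in 36.4%. Of the 12, KPNA2 shows the widest gap on the lower side and XPOT on the higher side. The young libraries of NUP214 are the most scattered of its panel row.

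Importin beta and most of its relatives were slightly lower under TMM: 7 of 12 were lower (58.3%) and 2 higher (16.7%). Among all tested genes 36.3% were lower and 34.8% higher. With library size alone 3 were lower and 4 higher, against backgrounds of 25% and 48.6%. KPNB1 (ENSG00000108424, chromosome 17 from 47649476 to 47685505), importin beta itself, had 325.7, 321.5 and 325.5 CPM in quiescent and 410.4, 443.2 and 409.5 CPM in young libraries. The quiescent libraries sat close together and below all young ones, at 77.0% of their level (log2 fold change -0.38 ± 0.04, SE, adjusted p = 6.31e-09). IPO5, an importin of ribosomal proteins, had 231.0, 233.6 and 234.5 CPM in quiescent and 316.4, 331.8 and 313.6 CPM in young libraries (log2 fold change -0.46 ± 0.04, SE, adjusted p = 7.52e-11), and here too the groups stood apart. RANBP6, a close relative of IPO5, was at 79.6% of the young level.

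The remaining importins differed less. IPO11, TNPO3 (the importin of SR splicing factors), IPO8 and IPO7 (which imports ribosomal proteins and histones) were called lower at 86.6%, 87.4%, 91.3% and 92.6% of the young level, without overlap, but none of the 4 was called with library size alone, where IPO8 and IPO7 stood at log2 fold changes of 0.05 and 0.07. The call of IPO7 was also lost without quiescent replicate 1 (log2 fold change -0.10, adjusted p = 0.0664), quiescent replicate 2 (-0.10, adjusted p = 0.101) or young library 1.1 (-0.08, adjusted p = 0.0935), and that of IPO8 without quiescent replicate 3 (-0.10, adjusted p = 0.0646). IPO13, which works in both directions, had 59.1, 56.4 and 56.7 CPM in quiescent and 49.9, 48.4 and 49.5 CPM in young libraries, with every quiescent library higher (log2 fold change 0.22 ± 0.04, SE, adjusted p = 0.000105). TNPO2 was called higher at 108.2% of the young level, but not without quiescent replicate 1 (log2 fold change 0.10, adjusted p = 0.075) or replicate 2 (0.12, adjusted p = 0.0515), with the length trend removed (0.08, adjusted p = 0.0547) or with no filter on low counts (0.10, adjusted p = 0.0846). Its close relative TNPO1, or transportin, the importin of several RNA-binding proteins, had 288.7, 286.8 and 286.5 CPM in quiescent and 298.5, 308.9 and 290.2 CPM in young libraries and was not called (adjusted p = 0.18), although the groups did not overlap. IPO9 was not called either (log2 fold change -0.07, adjusted p = 0.13). It was called lower without young library 1.2 (-0.08, adjusted p = 0.0388) and with a gene length trend removed (-0.11, adjusted p = 0.00771), but higher with library size alone (0.11, adjusted p = 0.018). IPO4 had about 1 CPM in both groups (adjusted p = 0.976), and its standard error of 0.23 in log2 leaves moderate differences undetectable at this depth. REC8, which overlaps IPO4, had 314 reads in quiescent and 419 in young libraries, beside 74 and 93 for IPO4. Whether this overlap lowers the count of IPO4 was not tested. Reads on the pseudogene of IPO8 were 5.5% of those on IPO8, the highest such share among the tested genes.

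Among the export receptors 5 of 8 were lower (62.5%) and 1 was higher (12.5%) under TMM, against 36.3% and 34.8% of all tested genes. With library size alone 3 were lower and 3 higher, against 25% and 48.6%. The largest changes in each direction, those of XPO6 and XPOT, held under each of the 4 scalings. XPO6 (ENSG00000169180, chromosome 16 from 28097979 to 28211920), the export receptor of actin with profilin, had 176.0, 174.7 and 182.4 CPM in quiescent and 307.6, 312.6 and 296.8 CPM in young libraries. All quiescent values lay far below the young ones, at 58.1% of their level (log2 fold change -0.78 ± 0.04, SE, adjusted p = 2.13e-15). XPOT (ENSG00000184575, chromosome 12 from 64404350 to 64451127), the export receptor of tRNA, had 392.6, 407.9 and 398.0 CPM in quiescent and 234.7, 242.6 and 237.9 CPM in young libraries. Here all quiescent values lay far above the young ones, at 167.6% of their level (log2 fold change 0.75 ± 0.04, SE, adjusted p = 3.17e-15). Reads on the XPOT pseudogene were 0.102% of those on XPOT.

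XPO1 (ENSG00000082898, chromosome 2 from 61477849 to 61538626), or CRM1, the main export receptor for proteins with a leucine-rich export signal, had 186.9, 190.5 and 195.9 CPM in quiescent and 270.8, 271.4 and 270.3 CPM in young libraries. The groups were clearly apart, with the quiescent level at 70.6% of the young one (log2 fold change -0.50 ± 0.04, SE, adjusted p = 1.02e-11). CSE1L, which returns importin alpha to the cytoplasm, had 95.9, 98.3 and 94.2 CPM in quiescent and 121.9, 123.4 and 128.5 CPM in young libraries (log2 fold change -0.37 ± 0.04, SE, adjusted p = 9.86e-09), again without overlap. RANBP17 and XPO7, which are close relatives, were at 81.5% and 84.2% of the young level, but were not called with library size alone. XPO5, the export receptor of microRNA precursors, had 55.2, 53.55 and 55.6 CPM in quiescent and 54.2, 56.4 and 55.0 CPM in young libraries, with the groups interleaved, and was not called (log2 fold change -0.01 ± 0.04, SE, adjusted p = 0.824). XPO4 was not called either (adjusted p = 0.415).

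XPOT therefore changed its place among the export receptors. Per kilobase of exon it made up 36.3%, 37.2% and 36.5% of the summed exportin level in quiescent and 19.9%, 20.1% and 20.1% in young libraries. XPO6 made up 17.0 ± 0.411% in quiescent and 26.8 ± 0.535% in young libraries, CSE1L 17.1 ± 0.333% and 20.3 ± 0.669%, and XPO1 11.0 ± 0.230% and 14.3 ± 0.143%, in the same order of groups (SD, n = 3 each). The highest share was that of XPOT in every quiescent library and that of XPO6 in every young library. For each XPO1 read there were 2.09 ± 0.0552 XPOT reads in quiescent and 0.880 ± 0.0134 in young libraries. Over all 57 genes, XPOT also had the highest level per kilobase in quiescent libraries, 54.3 CPM per kilobase, ahead of KPNB1 with 42.2 and RAN with 34.1. In young libraries RAN and KPNB1 with 54.8 each and KPNA2 with 54.5 CPM per kilobase led, a difference within the spread between libraries, and XPOT had 32.4.

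**Figure D4:**
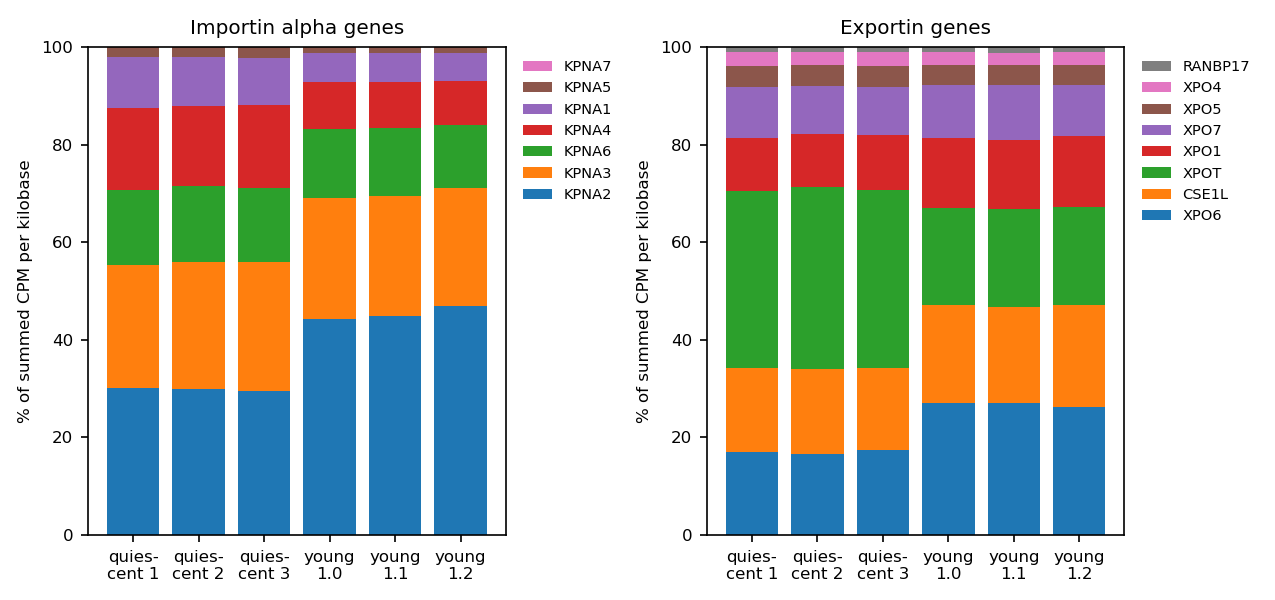
Share of each gene in the summed CPM per kilobase of exon of the 7 importin alpha genes (left) and the 8 exportin genes (right), one stacked bar per library, quiescent libraries left of young ones. KPNA2 takes 29.9% on average in quiescent and 45.3% in young bars, XPOT 36.7% and 20.0%, and the libraries of a group resemble each other closely.

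In the inner ring of the pore all 5 genes were lower under TMM, where 36.3% of all tested genes were. With library size alone 3 of the 5 were lower, against 25% of all tested genes. NUP205 (ENSG00000155561, chromosome 7 from 135557919 to 135648757), a large scaffold protein, had 54.8, 58.3 and 54.7 CPM in quiescent and 80.5, 84.0 and 75.3 CPM in young libraries. The groups did not overlap, and the quiescent level was 70.1% of the young one (log2 fold change -0.51 ± 0.05, SE, adjusted p = 4.68e-10). NUP93 (ENSG00000102900, chromosome 16 from 56730105 to 56850286), which anchors the inner ring, had 43.7, 43.6 and 44.0 CPM in quiescent and 59.2, 61.8 and 60.9 CPM in young libraries (log2 fold change -0.47 ± 0.04, SE, adjusted p = 7.9e-10). Its quiescent libraries were nearly equal and all below the young ones. NUP155, which links the ring to the membrane, was at 73.5% of the young level, NUP188, the paralogue of NUP205, at 89.4% and NUP35, with under 10 CPM, at 84.7%. NUP188 and NUP35 were called under TMM but not with upper-quartile factors or library size alone, where NUP188 stood at a log2 fold change of 0.02. NUP35 was not called either without quiescent replicate 1, 2 or 3 (adjusted p = 0.0798, 0.0757 and 0.0625) or without young library 1.2 (adjusted p = 0.15), and its log2 fold changes in these 4 fits were -0.24 to -0.17.

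The Y complex, which forms the outer rings, had 5 of its 6 genes lower under TMM, where 36.3% of all tested genes were. With library size alone it had 2 lower and 1 higher, against 25% and 48.6% of all tested genes. NUP160 had 57.5, 58.2 and 55.2 CPM in quiescent and 74.2, 78.0 and 71.6 CPM in young libraries (log2 fold change -0.39 ± 0.05, SE, adjusted p = 3.17e-08). NUP85 had 25.9, 25.7 and 24.2 CPM in quiescent and 32.6, 31.8 and 34.6 CPM in young libraries (log2 fold change -0.39 ± 0.06, SE, adjusted p = 1.18e-06). In both genes every quiescent library was below every young one. NUP133 and NUP107, which pair in the stem of the complex, were lower by less: NUP133 had 54.5, 56.9 and 55.5 CPM in quiescent and 60.7, 63.8 and 60.0 CPM in young libraries (adjusted p = 0.00587), and NUP107 had 40.2, 39.8 and 40.9 CPM in quiescent and 42.8, 42.7 and 47.1 CPM in young libraries (adjusted p = 0.0193). For NUP107 the gap between groups was narrow and young library 1.2 was the highest. Without that library the log2 fold change was -0.08 (adjusted p = 0.153), against -0.14 with all 6 libraries, and the call was lost too without quiescent replicate 1, 2 or 3 (adjusted p = 0.0586, 0.0788 and 0.0593). NUP107 was also not called by DESeq2 (adjusted p = 0.0729). NUP133 and NUP107 had log2 fold changes of 0.04 with library size alone. NUP37 was called lower at 85.3% of the young level under TMM but not with library size alone, and NUP43 was not called under TMM (log2 fold change 0.12 ± 0.06, SE, adjusted p = 0.0622).

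Among the 4 nucleoporins of the channel 3 were lower by small margins under TMM, where 36.3% of all tested genes were lower. With library size alone none was lower and 1 higher, against 25% and 48.6% of all tested genes. NUP58, a partner of NUP62 in the channel, had 71.3, 75.4 and 75.2 CPM in quiescent and 87.7, 87.0 and 89.8 CPM in young libraries (log2 fold change -0.25 ± 0.04, SE, adjusted p = 8e-06). NUP62, the founding nucleoporin of the central channel, had 37.4, 38.5 and 38.6 CPM in quiescent and 42.1, 44.0 and 44.0 CPM in young libraries (log2 fold change -0.18 ± 0.05, SE, adjusted p = 0.00146). Neither overlapped between groups under TMM, and neither was called with library size alone. NUP98, which also binds chromatin within the nucleus, had 125.1, 131.2 and 126.7 CPM in quiescent and 142.1, 142.7 and 128.0 CPM in young libraries. Young library 1.2 fell within the quiescent range, so the groups overlapped, and the call was marginal (log2 fold change -0.11 ± 0.04, SE, adjusted p = 0.0336) and absent with DESeq2 (adjusted p = 0.0712). It was also absent without quiescent replicate 1 or 3 (adjusted p = 0.141 and 0.153) and without young library 1.0 or 1.1 (adjusted p = 0.179 and 0.124). NUP98 had a log2 fold change of 0.07 with library size alone. NUP54, the third partner in the NUP62 complex, was not called (adjusted p = 0.341). ATF5, a transcription factor gene that overlaps NUP62, had 2187 reads in quiescent and 2661 in young libraries, beside 2456 and 3486 for NUP62.

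At the nuclear basket, NUP153, which docks import complexes on the nuclear side, had 69.7, 75.0 and 71.9 CPM in quiescent and 87.4, 94.5 and 83.6 CPM in young libraries. All quiescent libraries were lower (log2 fold change -0.29 ± 0.05, SE, adjusted p = 5.9e-06). NUP50, which helps to release cargo from importin alpha, had 63.0 ± 0.245 CPM in quiescent and 62.3 ± 1.18 CPM in young libraries (SD, n = 3 each) and was not called (log2 fold change 0.02 ± 0.04, SE, adjusted p = 0.745).

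The cytoplasmic filaments had more genes higher than lower, 3 against 1, under each of the 4 scalings. Of all tested genes, 34.8% were higher and 36.3% lower under TMM, and 48.6% and 25% with library size alone. NUP88 had 34.8, 35.9 and 38.3 CPM in quiescent and 43.9, 45.0 and 47.2 CPM in young libraries (log2 fold change -0.32 ± 0.05, SE, adjusted p = 4.79e-06). Its partner NUP214, which binds XPO1, had 71.0, 73.0 and 71.6 CPM in quiescent and 63.3, 66.8 and 56.1 CPM in young libraries (log2 fold change 0.21 ± 0.05, SE, adjusted p = 0.000995). The groups overlapped in neither gene, and the young libraries of NUP214 were the more scattered. RANBP2, or NUP358, the large filament protein that binds Ran and acts as a SUMO ligase, had 137.9, 145.1 and 139.2 CPM in quiescent and 129.2, 136.6 and 122.4 CPM in young libraries. The quiescent values were higher by a small margin (log2 fold change 0.12 ± 0.04, SE, adjusted p = 0.0152), and without quiescent replicate 2 the gene was not called (log2 fold change 0.10, adjusted p = 0.103). Nor was it called with the length trend removed (0.08, adjusted p = 0.0601), where 2 filament genes were higher, or with no filter on low counts (0.10, adjusted p = 0.0567). NUPL2, which acts with GLE1 in mRNA export, had 25.1, 27.2 and 24.0 CPM in quiescent and 22.8, 21.5 and 21.6 CPM in young libraries, without overlap (log2 fold change 0.21 ± 0.06, SE, adjusted p = 0.00327). Reads on the 7 RGPD genes, near-identical copies of RANBP2, summed to 0.586% of those on RANBP2. RABEP1 and RPAIN overlap NUP88 and had 7856 and 2260 reads in quiescent and 8267 and 2252 in young libraries, beside 2336 and 3647 for NUP88. From within the libraries, there were 0.778 ± 0.0180 NUP205 reads for each NUP214 read in quiescent and 1.29 ± 0.0450 in young libraries (SD, n = 3 each).

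NUP210L, a paralogue of the membrane nucleoporin NUP210 known mainly from testis, had the highest fold change of the 53 genes at a very low level. It had 18, 25 and 25 reads in quiescent and 9, 10 and 8 reads in young libraries, equal to 0.872, 1.05 and 1.26 CPM in quiescent and 0.354, 0.370 and 0.287 CPM in young libraries. All 3 young libraries lay below the 0.405 CPM that the filter asks for, before TMM scaling, and the gene was tested only because of the quiescent ones. Its log2 fold change of 1.64 ± 0.31 (SE) is therefore given as a description, with no test.

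Other genes of nuclear transport, which the symbol rule did not take in, were counted by list against the tested genes with a mean of at least 5 CPM, of which 42.6% were lower and 34% higher. Of 11 further nucleoporins, 5 were lower (45.5%) and 3 higher (27.3%), close to that background, with a median log2 fold change of -0.13. SEC13, which serves both the Y complex and vesicle coats, was lower by the widest margin, with 155.4 ± 4.86 CPM in quiescent and 252.2 ± 8.78 CPM in young libraries (SD, n = 3 each; log2 fold change -0.70 ± 0.04, SE, adjusted p = 5.12e-14). NDC1, a membrane nucleoporin, was at 65.5% of the young level. TMEM33, a membrane protein of the endoplasmic reticulum, was higher at 130.1% of it, and TPR, the protein of the basket filaments, at 115.1%.

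Of 8 genes of the Ran cycle and of import adaptors, 5 were lower (62.5%) and none was higher, against that background of 42.6% and 34%. RCC1, the chromatin-bound factor that loads Ran with GTP, had 31.7 ± 0.226 CPM in quiescent and 57.2 ± 2.12 CPM in young libraries (SD, n = 3 each; log2 fold change -0.85 ± 0.05, SE, adjusted p = 3.04e-14). RANGAP1, which makes Ran hydrolyse GTP in the cytoplasm, had 180.7 ± 3.52 CPM in quiescent and 303.6 ± 6.57 CPM in young libraries (SD, n = 3 each; log2 fold change -0.75 ± 0.04, SE, adjusted p = 3.89e-15). NUTF2, the carrier that brings Ran back to the nucleus, was at 76.8% of the young level. Together with RAN and RANBP1 above, the genes for Ran, its loading factor, its GTPase activator and the coactivator were thus each at 55.5% to 62.3% of the young level.

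Of 21 tested mRNA export genes, 13 were lower (61.9%) and 4 higher (19%), against the same background of 42.6% and 34%. ALYREF, an adaptor that couples splicing to export, was at 46.4% of the young level and the helicase gene DDX39A at 60.9%, whereas NXF1, the mRNA export receptor, was at 136.2%. DDX39B is listed at 0 reads in every library, and whether that reflects its expression or the counting of reads was not tested. Of 6 genes of SUMO conjugation at the pore, 3 were lower, with SUMO3 at 63.0% of the young level, and none was called higher. Of 15 nuclear envelope membrane genes, 8 were lower (53.3%) and 4 higher (26.7%): TMPO, which encodes the lamina-associated polypeptide LAP2, was at 47.7% of the young level, and TOR1AIP1, which encodes LAP1, at 141.2%. Of 5 spindle assembly factors that importins hold and Ran releases in mitosis, TPX2, NUSAP1, KIFC1 and DLGAP5 were lower with log2 fold changes of -2.31 to -3.42, and NUMA1 was higher at 142.1% of the young level. With library size alone, 48.6% of all tested genes were higher and 25% lower. Under that scaling more genes were higher than lower among the further nucleoporins (5 against 2), the envelope genes (6 against 4) and the SUMO genes (3 against 1). The mRNA export list then had 7 lower and 5 higher and the Ran cycle list 4 lower and 2 higher.

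**Figure D5:**
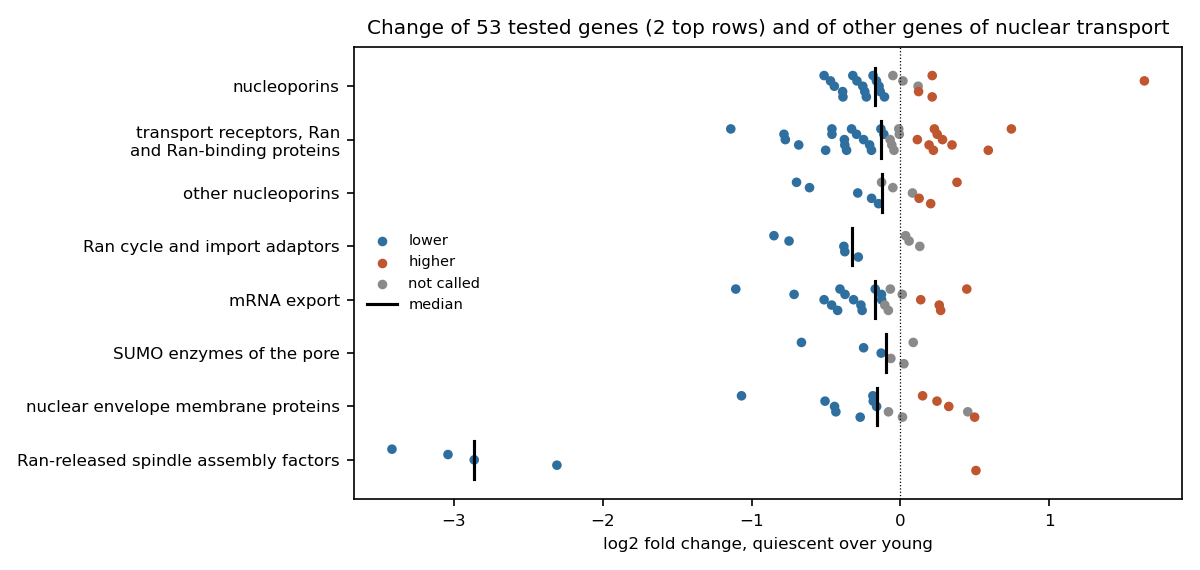
Log2 fold change, quiescent over young, of the 53 tested nucleoporin and transport genes (upper pair of rows) and of further genes of nuclear transport by list (rows beneath), with each gene as a point coloured by call and the median of each row as a bar. The medians lie between -0.33 and -0.10 except for the spindle assembly factors at -2.86, whose 4 lowest genes lie far outside the range of the nucleoporins and receptors.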

How the data were processed

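Raw read counts of 60675 Ensembl genes in 6 libraries, and RPKM values of the same genes, were deposited by the authors, one table each. Per the submitters' processing notes, the tools were bcl2fastq 1.8.4, STAR 2.4.1d and featureCounts 1.4.6-p4, with the build GRCh38, and per the labels' protocols the TruSeq RNA Library Preparation Kit v2 was used, which does not mark the strand. Not given in the sources used here were the annotation release, the strand setting and the handling of reads with several matches. Quiescent columns carry their sample titles. The young columns show their group but not which sample each is, so they are called young library 1.0, 1.1 and 1.2.

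The deposited RPKM were not used for levels. Over 3606 well-covered genes, the ratio of count to RPKM between quiescent replicates 2 and 1 ran from 0.609 to 1.50 and repeated every 14 rows, so the divisor is not constant within a column (tolerance 0.002). Levels per length are CPM divided by the exon length of GENCODE 29, in which 57055 gene IDs were found. The design had foreseen RPKM for naming genes by level, and CPM per kilobase replaced it.

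The count test was run in R 4.3.3 with edgeR 4.0.16: filterByExpr, TMM factors, robust glmQLFit with group as the only term, glmQLFTest, and Benjamini-Hochberg adjustment over 15568 genes. Adjusted p-values are from this test unless DESeq2 is named. The test returns no standard error, so each SE given is the size of the unshrunk log2 fold change divided by the square root of F. The fit gave a biological coefficient of variation of 3.84%. The test was tried on simulated counts first. Alternatives were DESeq2 1.42.0, limma 3.58.1 (voom, and log2(RPKM + 1) or log2(RPKM + 0.1)), other scalings and filters, removal of a length trend, and omission of genes with copies or of each library.

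The genes and lists were chosen with earlier results of these data known. Library values are given for the 2 genes with the largest called change in each role, the largest in the minority direction and 12 fixed genes; the gene with the highest level in each role is named. RANBP9, RANBP10, KPNA4, NUP214, TNPO1, XPO5 and the library values of NUP133 were added after their values were seen. Reads have no molecular identifiers, so no counting interval is given.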

Additional observations from a re-analysis of the deposited data

How the results depend on the processing

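The 27 genes named by rule include 26 tested ones, and over their alternatives 380 values kept direction and call, 49 lost the call and 10 changed sign. No paired analysis was possible because the young columns carry no replicate number that ties them to a sample. Leaving out each library in turn gave 28 to 31 genes lower, 11 to 13 higher, 1 at least 2-fold lower, medians of -0.17 to -0.15, and over all tested genes 5051 to 5491 higher and 5355 to 5543 lower. NUP210L, whose call is no result, is among the higher genes in each of these fits and with library size alone. With library size alone 18 were lower, 20 higher and 0 at least 2-fold lower, and the median was 0.018; NUP107 (0.043), NUP133 (0.036), NUP188 (0.018) and NUP98 (0.072) changed sign. The median was -0.090 with upper-quartile factors, -0.15 with a filter of 1 CPM in 3 libraries and -0.20 with the length trend removed. Without the genes that have named copies, 0 were at least 2-fold lower, since KPNA2 is one of them.

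On the deposited RPKM, whose divisor varies down the rows, the counts fell. With log2(RPKM + 0.1) 17 genes were lower, 6 higher and 2 at least 2-fold lower, and their median was -0.26. Of all 18791 genes in that fit, 4668 were lower and 2638 higher, with a median of -0.11. Without a filter on low values the counts were 13, 4 and 2 and the median -0.21. Of all 31386 genes, 4117 were then lower and 2180 higher, with a median of -0.063. With log2(RPKM + 1) the counts were 17, 6 and 2 and the median -0.22. Of all 18791 genes, 4628 were then lower and 2603 higher, with a median of -0.056. IPO13 then stood at -0.088 in both fits with 0.1 and at -0.080 with 1, and XPO1 at 0.22, 0.22 and 0.21. The cause of these changes was not tested. IPO4, NUP210L and NUP35 have the fewest reads of the tested genes, and depth limits what can be seen for them.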
